A study of Mus musculus with 8 samples.

Results

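The genes described here are those of the ephrins, their Eph receptors, the semaphorins, the plexins and both neuropilins, measured in the dorsal skin of female mice of the hairless strain Hos:HR-1. Mice were 9 weeks old at the start, ate for 12 weeks either the purified diet AIN-93G (control diet) or 100 g of that diet mixed with 2 g of fish scale collagen hydrolysate (collagen diet), and were 21 weeks old at sampling. Of the 16 mice of the study, 8 ate each diet, and 4 biological replicates of each diet were run on 1 oligonucleotide array each, without further genotype or agent. Members were taken by name: symbols of the form Epha, Ephb, Efna or Efnb with a number, those starting with Sema or Plxn, and *Nrp1* and *Nrp2*, on probe sets annotated to that symbol alone. This gave 53 of 18193 genes, on 124 probe sets, and where a gene had several, the one with the highest 8-array mean stands for it. The name rule also took *Plxna4os1*, a transcript of the strand opposite *Plxna4* that encodes no plexin. The family was picked because *Ephb1* and *Plxna2* ranked among the higher genes on the collagen diet, so the contrast between the diets is given for all members as a description and supports nothing by itself.

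Eph receptors are receptor tyrosine kinases that bind ephrins on the surface of a neighbouring cell. Ephrin-A ligands are held to the membrane by a lipid anchor and ephrin-B ligands span it, and both partners can signal into their own cell. Semaphorins, secreted in class 3 and mostly membrane-bound in the other classes, act through plexins, and most class 3 members need a neuropilin as the binding partner. The families are best known for steering nerve fibres and blood vessels, and Eph receptors and ephrins are also present in the epidermis, where they act at contacts between keratinocytes.

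The deposited values differed little between arrays, so they are given as deviations from the gene's mean over the 8 arrays in millionths (1e-06) of a deposited log2 unit. A difference, collagen minus control diet, is also given relative to that gene's standard deviation within the groups, pooled over both (SD units), in which its standard error is 0.71 for every gene. A difference here is no fold change of RNA, since the sources used here do not say how the authors summarized and normalized the arrays. An array value cannot be set against that of another probe set, so no order of expression among the members is given. In whole skin, fewer cells of a type and less RNA per cell cannot be told apart.

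Of the keratinocyte and fibroblast markers measured, 7 of 7 basal, 7 of 7 suprabasal and 6 of 6 dermal fibroblast genes lay above the level filter. The filter left out the lowest 30% of genes by mean. All 10 skeletal muscle, 5 macrophage, 5 mast cell and 4 adipocyte genes measured also lay above it, so these counts set no cell type apart. Control replicate 4 and collagen replicate 1 stood apart, with mean skeletal muscle marker scores of -1.39 and -1.32 SD units against 0.12 to 0.85 in the other arrays. Values without them are given for some members. Hair follicle markers were higher on the collagen diet in 8 of 8 genes (median 1.61 SD units, but 0.50 after quantile normalization and 1.01 after median centring, with 5 of 8 higher in both), with array scores of -1.27 to 0.12 on the control and -0.06 to 1.52 on the collagen diet. Cell cycle markers were lower in 9 of 9 genes (median -2.17 SD units, but -0.34 with 8 of 9 lower after quantile normalization and -0.61 after median centring), with array scores of 0.87 to 2.62 against -2.38 to -1.04. The endothelial marker scores overlapped, at -0.95 to 0.72 on the control and -0.92 to 0.65 on the collagen diet, and so did those of Schwann cells and nerve, at -1.20 to 0.42 and -0.18 to 0.26. The part of these shifts in the values below was not tested.

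Reference sequence around the annotated starts of 3 genes is printed here because *Ephb1* and *Plxna2* were the highest members and *Efna1* the lowest, in SD units. Each window of 300 bases runs from 250 before the start to 50 after it, 5′ to 3′ on the gene's own strand, from RefSeq on GRCm38.p6. Capitals mark the GC box (GGGCGG) and the CCAAT box (CCAAT), each on either strand. The *Ephb1* window lies at chr9:102354644-102354943 (minus strand), that of *Plxna2* at chr1:194619579-194619878 (plus strand), and the 2 windows of *Efna1* at chr3:89279596-89279895 and chr3:89280902-89281201 (minus strand).
Ephb1: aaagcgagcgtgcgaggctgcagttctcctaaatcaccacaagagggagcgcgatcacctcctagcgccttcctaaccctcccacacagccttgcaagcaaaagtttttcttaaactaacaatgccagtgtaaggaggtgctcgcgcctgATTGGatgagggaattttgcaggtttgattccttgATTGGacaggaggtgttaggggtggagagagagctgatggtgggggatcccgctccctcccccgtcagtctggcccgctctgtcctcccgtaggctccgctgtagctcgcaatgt
Plxna2: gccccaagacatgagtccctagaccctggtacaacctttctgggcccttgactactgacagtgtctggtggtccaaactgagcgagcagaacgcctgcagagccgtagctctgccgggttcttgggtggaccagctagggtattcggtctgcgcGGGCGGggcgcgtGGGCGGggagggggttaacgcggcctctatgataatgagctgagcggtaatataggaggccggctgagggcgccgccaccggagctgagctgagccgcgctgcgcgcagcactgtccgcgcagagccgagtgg
Efna1, first window: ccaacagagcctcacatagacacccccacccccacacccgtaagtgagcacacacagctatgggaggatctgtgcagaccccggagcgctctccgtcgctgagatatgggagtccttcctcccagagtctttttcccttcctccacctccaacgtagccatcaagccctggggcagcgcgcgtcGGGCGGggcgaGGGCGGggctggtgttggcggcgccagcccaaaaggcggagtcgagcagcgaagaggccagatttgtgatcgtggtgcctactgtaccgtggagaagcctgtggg
Efna1, second window: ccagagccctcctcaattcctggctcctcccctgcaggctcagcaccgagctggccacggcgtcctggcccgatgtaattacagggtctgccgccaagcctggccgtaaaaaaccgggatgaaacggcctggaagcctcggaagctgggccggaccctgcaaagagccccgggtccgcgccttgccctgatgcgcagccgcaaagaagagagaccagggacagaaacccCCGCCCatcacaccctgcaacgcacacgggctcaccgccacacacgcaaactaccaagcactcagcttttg
The *Ephb1* window held 0 GC boxes, 2 CCAAT boxes and 14 CpG pairs, and that of *Plxna2* 2 GC boxes, 0 CCAAT boxes and 25 CpG pairs. The windows of *Efna1* held 2 and 1 GC boxes, 0 CCAAT boxes and 20 CpG pairs each. No letters of a TATA box (TATAAA) or an E-box (CACGTG) were in these windows. Promoter sequence was matched for 46 of the 53 members in 60 windows, of which 76.7% held a GC box, against 52.3% of the 18109 windows of all genes on the arrays and 35.7% of all 32851 windows. A CCAAT box was in 31.7% of member windows and 37.4% of the windows of genes on the arrays, a TATA box in 1.67% and 9.77%, and an E-box in 6.67% and 8.72%. The median number of CpG pairs was 19.5 in member windows and 16 in those of genes on the arrays. A match of letters is a description and shows no binding.

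The diets were compared to find genes that differ in skin after feeding the hydrolysate. No member passed limma's moderated test across genes: 0 of 46 members above the level filter had an adjusted p below 0.05, as had 0 of all 12735 genes tested (0%). At an unadjusted p below 0.05 stood 2 members higher on the collagen diet, beside 1.21% of genes, and 3 lower, beside 4.15%. The 2 higher ones are *Ephb1* and *Plxna2*, for which the family was picked, and without them the count higher was 0. Without moderation of variances 0 members had an adjusted p below 0.05. At an unadjusted p below 0.05 there were then 6 of 46 members, beside 673 of 12735 genes. In 6 members the values of the 4 control and the 4 collagen arrays did not overlap, 3 higher (0.777% of genes tested) and 3 lower (2.53%). Without *Ephb1* and *Plxna2*, 1 member was higher without overlap. Nothing is read from these shares, since the rule that formed the family used this contrast. Over all 53 members 27 differed upward and 26 downward, the median being 0.03 SD units, against 48.1% of all genes higher and a median of -0.04. After quantile normalization 24.5% of members and 35.6% of genes were higher, and after median centring 13.2% and 10.1%. The difference was under 1 SD unit in 39 members, or 73.6%, and in 81.2% of all genes.

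**Figure D1:**
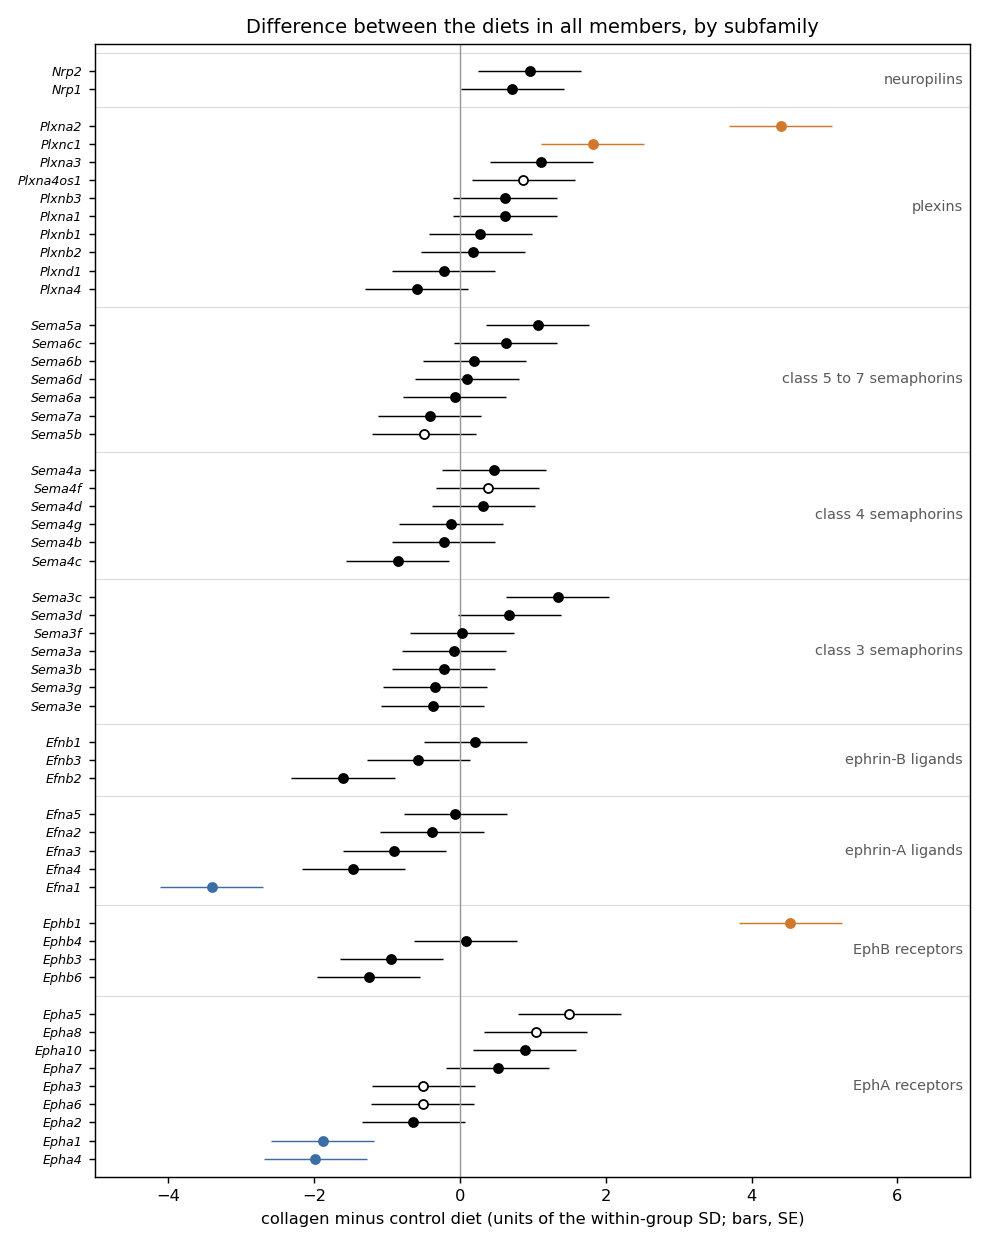
Difference between the diets in each of the 53 members, grouped by subfamily. The horizontal axis gives SD units (collagen minus control), bars are the standard error, open points mark the 7 members below the level filter, orange and blue points the 3 higher and 3 lower members whose groups did not overlap, and the ephrin-A ligands all lie left of 0 while 8 of 10 plexin points lie right of it as deposited, against 3 after quantile normalization and 1 after median centring. Under these scalings 35.6% and 10.1% of all genes were higher.

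Of the 9 EphA receptors, 4 were higher and 5 lower on the collagen diet, at a median of -0.50 SD units. After median centring all 9 were lower, when only 10.1% of all genes were higher. *Epha1* (1422917_at), an Eph receptor of epithelia, stood at 12.9, 113, 7.56 and 78.4 millionths in control replicates 1 to 4 and at -5.86, -138, -12.7 and -55.6 in collagen replicates 1 to 4. Every collagen-diet array lay below every control-diet array, and the gap between the groups was 13.4 millionths. The group means were 53.0 ± 51.4 and -53.0 ± 60.7 millionths (SD, n = 4 each), a difference of -106 ± 39.7 (SE) or -1.88 SD units. It was -0.55 SD units after quantile normalization and -0.75 after median centring. The 2 further probe sets of *Epha1* differed by 0.90 and -0.72 SD units.

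*Epha4* (1421929_at), which binds ephrins of both classes, stood at 406, 828, -71.6 and 58.0 millionths on the control diet and at -73.7, -418, -440.1 and -289 on the collagen diet. The groups were separated by only 2.03 millionths, between control replicate 3 and collagen replicate 1, and the control arrays spread far more widely than that. The difference was -610.1 ± 218 millionths (SE, n = 4 per diet) or -1.98 SD units. It remained negative after quantile normalization (-1.16 SD units) and median centring (-2.04 SD units). Of its 4 further probe sets 3 were lower too, at -0.41, -1.89 and -1.14 SD units, and 1 was higher, at 0.47.

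*Epha2* (1421151_a_at), the receptor of ephrin-A1 in keratinocytes, differed by -0.64 SD units with overlapping groups, and by 0.36 after quantile normalization. *Epha5* (1420557_at), mainly a receptor of nerve cells, differed by 1.50 SD units, but it lay below the level filter and turned to -0.03 after quantile normalization and -0.13 after median centring. *Epha8* differed by 1.04, *Epha10*, whose kinase domain is inactive, by 0.89, *Epha7* by 0.52, *Epha3* by -0.50 and *Epha6* by -0.51 SD units. *Epha3*, *Epha5*, *Epha6* and *Epha8* lay below the level filter, so 5 of the 9 EphA genes entered the test.

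Among the 4 EphB receptors that the rule took, 2 were higher and 2 lower, and *Ephb2* is not among the members. *Ephb1* (1455188_at) had the largest difference of all members in SD units. It stood at -7.68, -27.7, -11.2 and -13.0 millionths in control replicates 1 to 4 and at 12.6, 18.1, 12.2 and 16.7 in collagen replicates 1 to 4. The groups lay 19.8 millionths apart, the collagen arrays close together and control replicate 2 lowest. The group means were -14.9 ± 8.82 and 14.9 ± 2.96 millionths (SD, n = 4 each), a difference of 29.8 ± 4.65 (SE) or 4.53 SD units. Without control replicate 2, whose low value widens the spread, it was 8.91 SD units. No p is given for this gene, which was one of the reasons for the choice of the family, and 1 probe set measured it.

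The size and sign for *Ephb1* depended on the scaling. Subtracting from every array the median deviation of its genes gave 4.03 SD units. Array medians differed by up to 3.69e-04 log2 units, which is many times the difference of *Ephb1*, and that difference was 0.04 SD units after median centring. After quantile normalization *Ephb1* stood at 613 millionths in both control replicate 4 and collagen replicate 1 and at -695 in collagen replicate 4, with a difference of -257 ± 316 millionths (SE, n = 4 per diet) or -0.58 SD units. *Ephb4* (1449845_a_at), the ephrin-B2 receptor of veins, differed by 0.08 SD units, *Ephb3* by -0.94, and *Ephb6* (1418051_at), whose kinase domain is inactive, by -1.25. For *Ephb6* the collagen arrays stood at 14.3, -19.6, -26.5 and -10.9 millionths and the control arrays at -11.5, 16.1, 10.7 and 27.4, so that control replicate 1 and collagen replicate 1 crossed the other group. Without control replicate 4 and collagen replicate 1 *Ephb6* differed by -2.06 SD units, *Ephb3* by -1.84 and *Ephb4* by 0.70.

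All 5 ephrin-A ligands were lower on the collagen diet, with a median of -0.90 SD units, and the 5 were also lower, but at a median of -0.20 after quantile normalization and -0.22 after median centring. Only 35.6% and 10.1% of all genes were higher under these scalings, so the count under them sets the ligands little apart from other genes. Without control replicate 4 and collagen replicate 1, 4 of 5 were lower and *Efna2* differed by 0.19 SD units. *Efna1* (1416895_at), the ligand of EphA2, led them. It stood at 97.3, 159, 25.6 and 126 millionths on the control diet and at -85.1, -185, -104 and -33.7 on the collagen diet. No control array was below its mean over all arrays, no collagen array was above it, and the groups lay 59.2 millionths apart. The group means were 102 ± 56.8 and -102 ± 62.9 millionths (SD, n = 4 each), a difference of -204 ± 42.4 (SE) or -3.40 SD units, and of -2.82 SD units without control replicate 4 and collagen replicate 1. It was -0.39 SD units after quantile normalization and -1.41 after median centring. The further probe set of *Efna1* went the same way with overlapping groups, at -0.77 SD units, and the mean of both gave -1.70.

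The other ephrin-A ligands overlapped between the diets. *Efna4* (1421784_a_at) stood at 1.24, 4.19, 6.07 and 12.8 millionths on the control diet and at 6.29, -6.28, -19.8 and -4.53 on the collagen diet. Of the collagen arrays, replicate 1 alone lay within the control range. *Efna4* differed by -1.46 SD units, or by -2.28 without control replicate 4 and collagen replicate 1. *Efna3* differed by -0.90, *Efna2* by -0.38 and *Efna5* by -0.06 SD units. Of the 3 ephrin-B ligands, *Efnb2* (1419638_at), which marks arteries, differed by -1.60, *Efnb3* by -0.57 and *Efnb1* (1418286_a_at) by 0.21 SD units. The 2 further probe sets of *Efnb1* went the other way, at -2.11 SD units with groups that did not overlap and at -1.24 with overlap, and the mean of all 3 gave -1.28. *Efnb2* stood at 21.0, -11.3, 23.6 and 10.9 millionths on the control diet and at 0.181, -3.26, -23.7 and -17.4 on the collagen diet. Control replicate 2 was the control array that crossed the collagen values, and without it the difference was -3.02 SD units. The 3 further probe sets of *Efnb2* differed by 0.06, 0.71 and 0.07 SD units, against the direction of the one with the highest mean, and the mean of all 4 gave -0.04.

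**Figure D2:**
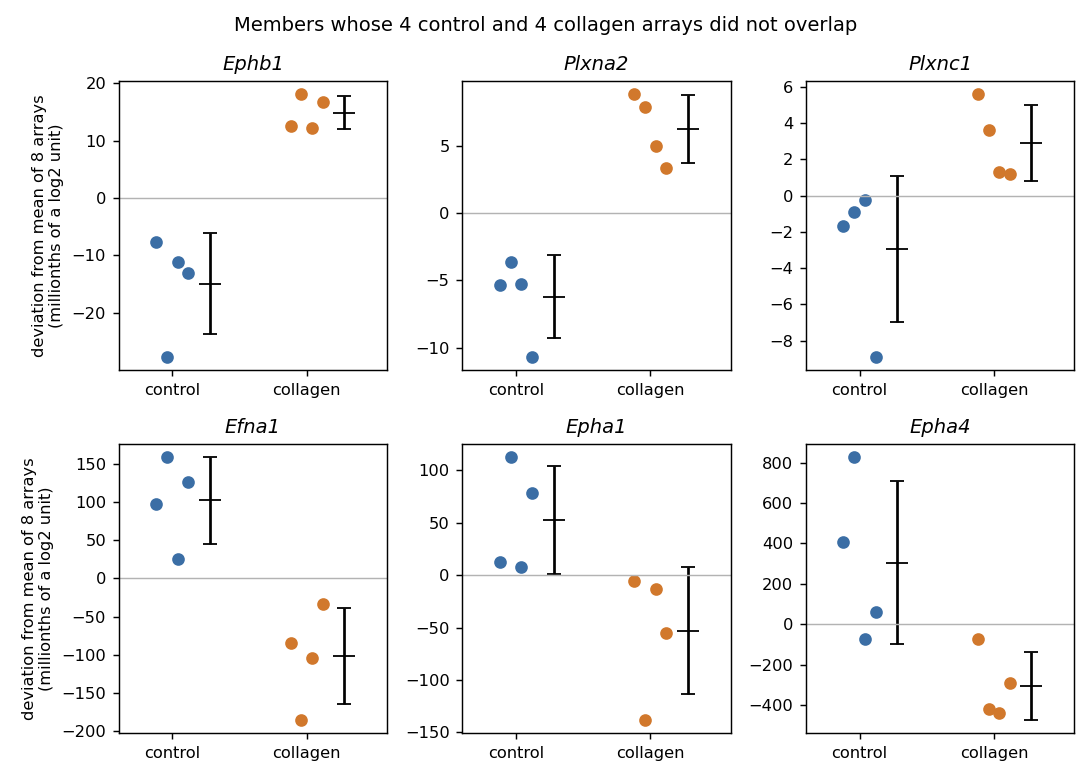
Deviation of each array from the gene's mean over 8 arrays, in millionths of a deposited log2 unit, for the 6 members whose control (blue) and collagen (orange) arrays did not overlap. Black bars are mean and SD (n = 4), the vertical scale differs between genes, and the gap between the groups runs from 1.45 millionths in *Plxnc1* to 59.2 in *Efna1*; *Ephb1*, *Plxna2* and *Plxnc1* change sign after quantile normalization, and *Plxna2* and *Plxnc1* after median centring.

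Semaphorins were evenly split, with 10 of 20 higher and 10 lower (median -0.02 SD units), and in each of them the groups overlapped. After quantile normalization 4 of 20 were higher and after median centring 3, beside 35.6% and 10.1% of all genes. In 18 of 20 the difference was under 1 SD unit, the 2 others being *Sema3c* and *Sema5a*. *Sema3c* (1429348_at), a secreted semaphorin, stood at -22.1, -30.7, 9.23 and -4.00 millionths on the control diet and at 20.6, -13.1, 27.2 and 12.8 on the collagen diet, a difference of 23.8 ± 12.6 (SE, n = 4 per diet) or 1.34 SD units. It turned to -0.66 SD units after quantile normalization and to 0.00 after median centring. *Sema5a* (1437422_at) differed by 1.07 SD units, with collagen replicate 1 at 71.8 millionths and the other collagen arrays between -22.1 and 11.3. It was 0.03 SD units after quantile normalization, 0.06 after median centring and 0.48 without control replicate 4 and collagen replicate 1. The further probe sets of *Sema5a* differed by 0.03, 0.48 and -0.31 SD units.

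*Sema3e* (1419717_at), the ligand of plexin D1, had the widest spread among the probe sets that stand for the members. It stood at 718, 166, -354 and -163 millionths on the control diet and at 538, -412, -587 and 94.9 on the collagen diet, so that high and low arrays occurred in both groups. Its within-group SD was 490.0 millionths, against a median of 20.8 over the members and 11.7 over all genes, and its difference was -0.37 SD units, or 0.06 without control replicate 1. The lowest spread among these probe sets was that of *Plxnb3*, at 0.515 millionths.

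The other class 3 semaphorins lay close to 0: *Sema3a*, which repels sensory nerve fibres, differed by -0.08, *Sema3b* by -0.22, *Sema3d* by 0.68, *Sema3f* by 0.03 and *Sema3g* by -0.34 SD units. In class 4, which is bound to the membrane, *Sema4a* (1448110_at), known from immune cells, differed by 0.47 and *Sema4c* (1433920_at), a ligand of plexin B2, by -0.85 SD units. *Sema4d*, the CD100 of lymphocytes and a ligand of plexin B1, differed by 0.32, *Sema4f*, below the level filter, by 0.38, *Sema4b* by -0.22 and *Sema4g* by -0.12. *Sema5b* (1435963_at), also below the filter, differed by -0.49, *Sema6a*, a ligand of plexins A2 and A4, by -0.07, *Sema6b* by 0.20, *Sema6c* by 0.63, *Sema6d* by 0.10 and *Sema7a*, a lipid-anchored ligand of plexin C1, by -0.41 SD units. The 2 further probe sets of *Sema6a* differed by -1.39 and -1.46 SD units, and the mean of all 3 gave -1.13. Without control replicate 4 and collagen replicate 1 *Sema7a* turned to 0.65 SD units, and *Sema6d* differed by 1.00.

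Of the 10 genes named as plexins, 8 were higher on the collagen diet, with a median of 0.62 SD units. After quantile normalization 3 of 10 were higher and after median centring 1 of 10, beside 35.6% and 10.1% of all genes. *Plxna2* (1455037_at), a receptor of class 6 semaphorins and, with neuropilins, of class 3, was the other gene behind the choice of the family and is given without a p. It stood at -5.33, -3.65, -5.25 and -10.7 millionths on the control diet and at 8.82, 7.86, 4.98 and 3.31 on the collagen diet. The groups did not overlap and lay 6.96 millionths apart. The group means were -6.24 ± 3.10 and 6.24 ± 2.55 millionths (SD, n = 4 each), a difference of 12.5 ± 2.00 (SE) or 4.40 SD units, and of 5.75 SD units without control replicate 4 and collagen replicate 1. It was -56.1 ± 468 millionths (SE, n = 4 per diet) or -0.08 SD units after quantile normalization, and -0.07 SD units after median centring. The 3 further probe sets of *Plxna2* overlapped between the diets, at 0.73, -0.95 and 0.87 SD units, and the mean of all 4 gave 0.98.

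*Plxnc1* (1423213_at), the receptor of semaphorin 7A, stood at -1.66, -0.905, -0.227 and -8.91 millionths on the control diet and at 5.60, 3.60, 1.28 and 1.22 on the collagen diet. Control replicate 4 lay far below the other control arrays, and only 1.45 millionths separated the groups. The difference was 5.85 ± 2.27 millionths (SE, n = 4 per diet) or 1.82 SD units, and 2.73 without control replicate 4 and collagen replicate 1. It was -0.36 SD units after quantile normalization and -0.11 after median centring. Of its 5 further probe sets 4 were higher, at 0.18 to 1.54 SD units, and 1 was lower, at -0.46.

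*Plxna3* differed by 1.12, *Plxna1* by 0.62, *Plxnb3* by 0.62, *Plxnb1* by 0.28 and *Plxnb2* by 0.18 SD units, all with overlapping groups. *Plxnb3* turned to -0.22 after quantile normalization, -0.15 after median centring and -0.68 with the mean of its probe sets. *Plxnd1*, which binds semaphorin 3E on endothelial cells, differed by -0.22 and *Plxna4* (1441371_at) by -0.59 SD units. The opposite-strand transcript *Plxna4os1* differed by 0.87 SD units and lay below the level filter. Both neuropilins, which also bind vascular endothelial growth factors, were higher as deposited, *Nrp2* (1435349_at) by 0.96 and *Nrp1* (1448943_at) by 0.72 SD units, and *Nrp1* turned to -0.20 after quantile normalization. *Nrp2* stood at -34.8, -30.5, -14.8 and 20.5 millionths on the control diet and at -14.3, 3.58, 2.97 and 67.3 on the collagen diet, with control replicate 4 above all but 1 of the collagen arrays. Without control replicate 4 and collagen replicate 1 *Nrp2* differed by 1.89 SD units and *Nrp1* by 0.19. All 4 probe sets of *Nrp1* were higher, at 0.02 to 0.83 SD units.

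A choice of ligands and receptors, set side by side as differences in SD units, gave no common direction as deposited, and other pairs were not set out. *Efna1* stood at -3.40 and its receptor gene *Epha2* at -0.64. Of the other EphA genes *Epha1* and *Epha4* were also lower, at -1.88 and -1.98, while 4 of all 9 EphA genes were higher. *Efnb2* stood at -1.60, or at -0.04 with the mean of its probe sets, and *Ephb4* at 0.08. *Sema7a* stood at -0.41 and *Plxnc1* at 1.82, and *Sema6a* at -0.07 and *Plxna2* at 4.40, or at -1.13 and 0.98 with the mean of their probe sets. *Sema3e* and *Plxnd1* were both close to 0, at -0.37 and -0.22, as were *Sema4d* and *Plxnb1*, at 0.32 and 0.28. After median centring every gene named in this paragraph was lower, with *Plxnc1* at -0.11 and *Plxna2* at -0.07. Only 10.1% of all genes were higher under that scaling.

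**Figure D3:**
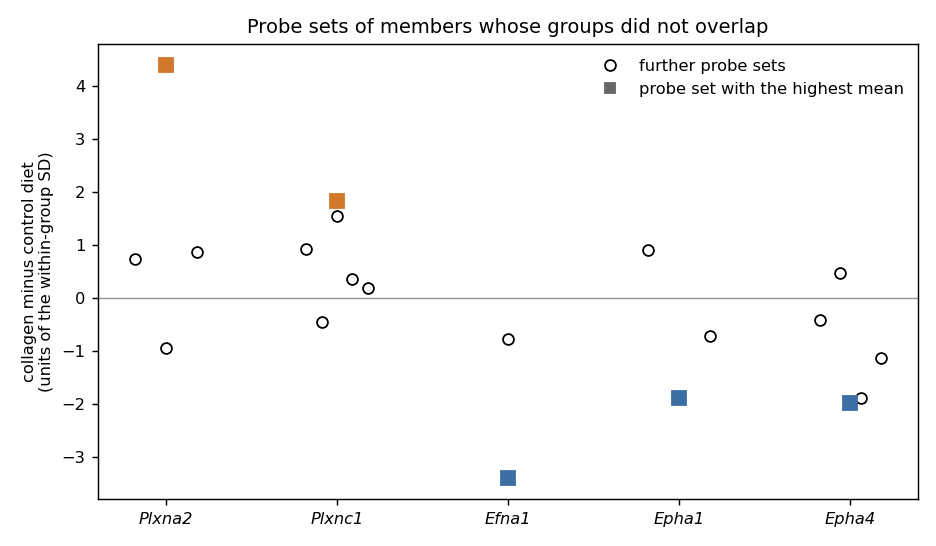
Difference between the diets, in units of the within-group SD, for every probe set of the 5 members with several probe sets whose groups did not overlap. Squares are the probe sets with the highest mean and open circles the 15 further ones, of which 11 lie on the same side of 0 as their square and each is nearer to 0; these are values as deposited, and the squares of *Plxna2* and *Plxnc1* change sign after quantile normalization and median centring.

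Probe sets of the same gene differed in direction in many members. Of 71 further probe sets of 36 members, 45 (63.4%) went the same way as the one with the highest mean, against 57.1% over all genes. For the members whose groups did not overlap it was 11 of 15 (73.3%), against 65.6% for all genes of that kind. Probe sets of a gene share the same arrays and RNA and are no replicates.

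The family's median moved further between arrays of 1 diet than between the diets. The median deviation of the 53 members was 0.74 SD units in collagen replicate 1 and -0.64 in collagen replicate 4, both on the same diet, and between -0.31 and 0.24 in the other 6 arrays. Over all genes the median lay between -0.21 and 0.27 SD units. Collagen replicate 1 held the highest value in 15 members (28.3%, against 16.1% of all genes), and collagen replicate 4 the lowest in 14 (26.4%, against 17.9% of all genes). The number of members higher on the collagen diet was 24 without collagen replicate 1 and 31 without collagen replicate 4.

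**Figure D4:**
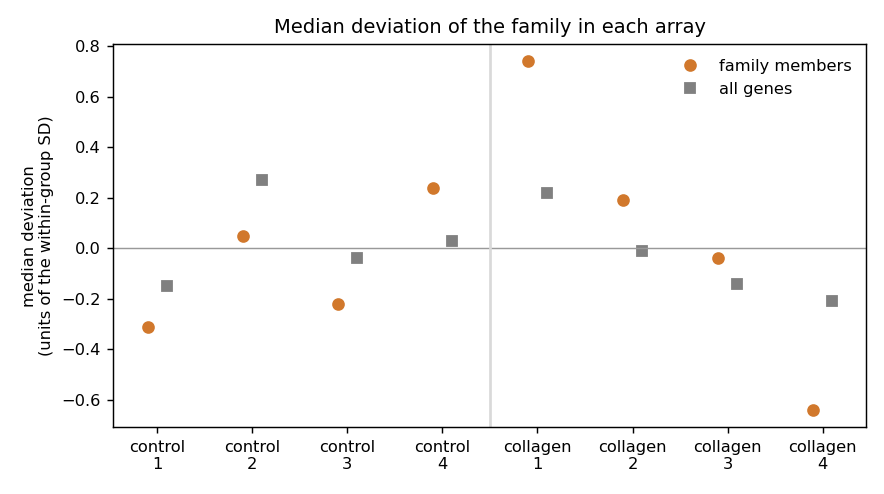
Median deviation from the gene's mean over 8 arrays, in units of the within-group SD, in each array for the 53 members (orange) and for all 18193 genes (grey). The highest and the lowest family medians, 0.74 and -0.64, are both collagen-diet arrays (replicates 1 and 4).

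Genes that carry the signal onward were no more uniform. Of 47 listed effectors 45 were on the arrays, 23 higher and 22 lower (median 0.04 SD units). After quantile normalization 19 of 45 were higher and after median centring 8 of 45, beside 35.6% and 10.1% of all genes. None of the 39 above the level filter passed limma's test over all genes (0%), 0 stood at an unadjusted p below 0.05 as higher and 4 as lower, beside 1.21% and 4.15% of all genes tested. The 3 with the smallest p were *Gipc1* (1422763_at), an adaptor of neuropilin 1, at -2.60 SD units (adjusted p = 0.717 in limma), *Rhoa* (1437628_s_at), the GTPase that drives actin contraction, at -3.21 (0.809) and *Mical1* (1456439_x_at), which oxidises actin downstream of plexins, at -2.04 (0.861). The other lower gene was *Farp1*, an activator of Rac, at -1.81 SD units (adjusted p = 0.902 in limma). The values of these single effectors are as deposited, and those under other scalings are not given here.

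Partners that share a receptor complex with the family were higher in 8 and lower in 7 of 15 genes, with 0 passing limma's test and 0 at an unadjusted p below 0.05. *Vegfc* (1419417_at), a ligand of neuropilin 2, differed by -1.47 SD units (adjusted p = 0.972 in limma), *Chl1* (1435190_at), an adhesion molecule, by 1.34 and *Tyrobp* (1450792_at), an adaptor of myeloid cells, by 1.23 (adjusted p = 0.999 each). Of 21 genes of the Slit, Robo, netrin and repulsive guidance families 10 were higher and 11 lower, again with 0 passing and 0 at an unadjusted p below 0.05. They were led by *Rgma* (1438241_at) at -1.68, *Unc5c* (1449522_at), a netrin receptor, at 1.66 and *Neo1* (1447693_s_at), the receptor of Rgma, at 0.96 SD units (adjusted p = 0.944, 0.955 and 0.999 in limma).

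**Figure D5:**
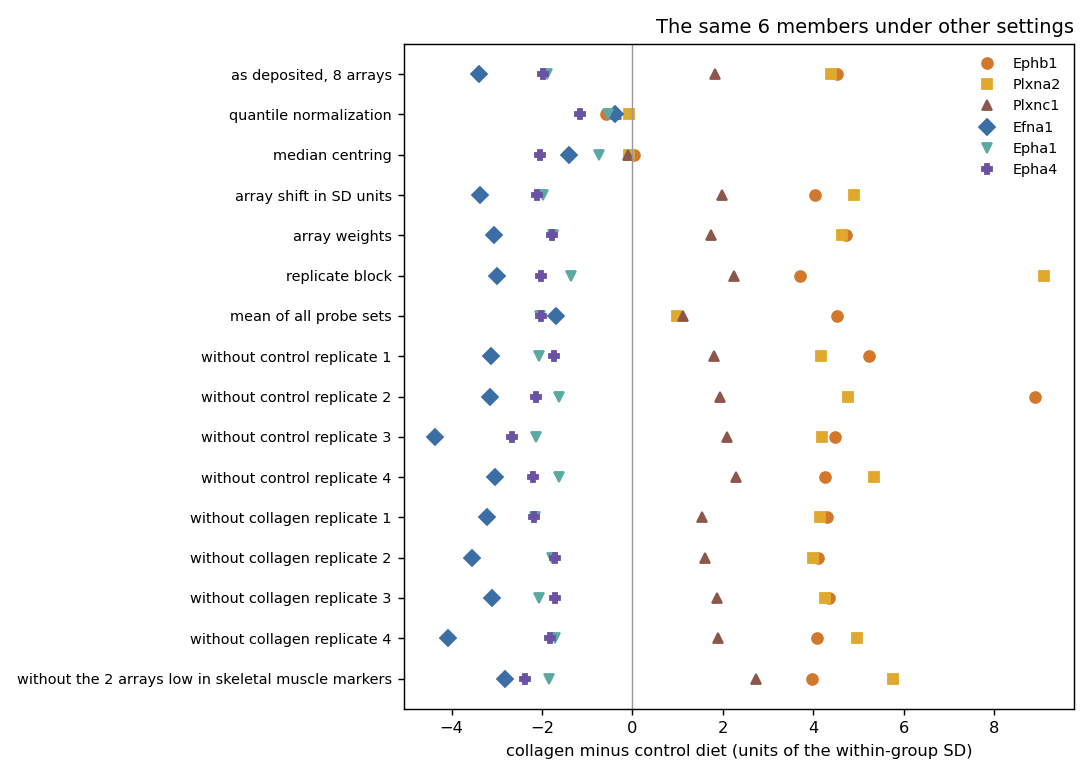
Difference between the diets, in units of the within-group SD, of the 6 members whose groups did not overlap, as deposited and under other settings (vertical axis). Quantile normalization brings all 6 to between -1.16 and -0.08, and median centring leaves *Epha4* at -2.04 and *Efna1* at -1.41, while no array left out turns a sign. SD units are those of each setting and not 1 common scale. The standard error, in millionths, was 2.00 for *Plxna2* as deposited and 468 after quantile normalization. It was 4.65 and 316 for *Ephb1*, and 218 and 474 for *Epha4*.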

How the data were processed

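RNA of dorsal skin was measured on 8 arrays, 4 for each diet, and the titles give each sample's group. Biotin-labelled RNA was prepared from 200 ng of total RNA by 3' amplification and hybridised to arrays, per the labels' protocols. The authors deposited 1 value per probe set and array, taken as log2 from the range of 5.34 to 14.27, and the submitters' processing notes name R 2.7.2. The sources used here do not give their summarization or normalization. Across arrays, the SD of a probe set had a median of 8.66e-06. The number of arrays limits the precision.

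Of 45101 probe sets 64 were controls. In GEO's platform annotation, which may be outdated, 34945 of the rest name 1 symbol, 932 several and 9160 none. All 53 member symbols matched the reference gene table by Entrez ID. Each gene took the probe set with the highest mean, and the lowest 30% of genes by mean were left out of the test, which left 12735. Diets were tested in R 4.3.3 by limma 3.58.1 (lmFit and eBayes, variance trend on intensity, 6 residual and 0.61 prior degrees of freedom, two-sided, Benjamini-Hochberg over all genes tested, threshold 0.05), which was tested on simulated data. Named members are *Ephb1* and *Plxna2*, those with groups that did not overlap or an unadjusted p below 0.05, and the most positive and most negative of each subfamily, with the other members given by their difference. Members and lists were chosen with earlier results of these data known. Alternatives were other filters, normalizations, variance models, a block for the replicate number, array weights, averaged probe sets and arrays left out. The labels call the samples biological replicates.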

Additional observations from a re-analysis of the deposited data

Results flagged for a closer look

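Of 36 groups of 4 arrays checked in the 18 named members, 2 held an array set far apart from the others; chance gives such a group about 1 time in 20. In *Plxnc1*, control replicate 4 lay below the rest of its group at -8.91 millionths of a log2 unit, and the gap to the nearest array was 0.835 of the group's whole range. It is one of the arrays low in skeletal muscle markers, and their part in this value was not tested. In *Sema5b*, collagen replicate 2 lay above the rest of its group at 9.70 millionths, with a gap of 0.896 of the range.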

How the results depend on the processing

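The count of members with an adjusted p below 0.05 stayed at 0 under every alternative run, as did that of the listed effectors. After quantile normalization and median centring 13 and 7 of 53 members were higher, *Ephb1* stood at -0.58 and 0.04 SD units, *Plxna2* at -0.08 and -0.07 and *Plxnc1* at -0.36 and -0.11, members with groups that did not overlap numbered 0 instead of 6 in both, and genes at an unadjusted p below 0.05 73 and 78 instead of 682. The cause was not tested. The mean of all probe sets gave *Plxna2* 0.98 SD units, and leaving out control replicate 4 and collagen replicate 1, chosen after seeing the data, gave 5.75. With single arrays left out *Ephb1* ran from 4.09 to 8.91 and *Plxna2* from 3.99 to 5.33 SD units, and members higher from 24 to 31. With the replicate number as a block *Plxna2* stood at 9.10 SD units and 0 members passed, as before. Deviations of same-numbered arrays correlated at 0.00, -0.02, 0.18 and -0.07 over 12735 genes. The labels do not say whether a number pairs mice or arrays, and these few correlations cannot decide it. Members whose groups did not overlap numbered 4 with averaged probe sets and 10 without both arrays, where 3 arrays per diet remain. Groups of fewer arrays separate more easily, and the share of all genes was not counted under these settings. Nothing is read from these counts. Single members moved by 1 SD unit or more, with no sign of a separated member turning, in 20 further cases, and 298 stayed within that. A single gene outside the family passed (1 gene) with the lowest 50% left out, after the array shift and without control replicate 1.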
